A study of Mus musculus with 6 samples.

Results

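The B cell identity genes were 9 genes that mark B lymphocytes, namely Ebf1, Pax5, Ms4a1, Cd79a, Cd79b, Blk, Cd22, Bank1 and Cr2. Each was read from the probe set, the group of short oligonucleotides on the array that measures a transcript, which was annotated to exactly 1 gene symbol. All 9 were measured, each by 1 such probe set, among 22180 genes with their own probe set and 34472 probe sets in all. CD4+CD25+ Treg of female mice 8 to 12 weeks old were profiled on GeneChip Mouse Gene 2.0 ST arrays, with 3 independent samples of HDAC10-/- and 3 of HDAC10+/+ (WT) C57BL/6 mice. The deletion was carried by the whole animal, not by Treg alone, and the line is named as B6N(Cg), whereas WT mice are given as C57BL/6 with no substrain, so a substrain difference and the deletion cannot be told apart. Treg were isolated as CD4+CD25+ cells from spleen and peripheral lymph nodes with magnetic beads, and the signals are those of all cells in the isolate.

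B cells arise from precursors in which the transcription factor Ebf1 opens the B lineage programme and Pax5 then fixes it and holds other lineages down. Mature B cells sense antigen with a membrane immunoglobulin, which signals through the Cd79a and Cd79b chains to kinases such as Blk, and co-receptors raise or dampen that signal. T cells use a separate receptor and are not known for most of these genes, so in a Treg preparation they are read as markers of another lineage. In bulk RNA, fewer cells of a type and less RNA per cell cannot be told apart.

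HDAC10-/- and WT Treg differed in several of these genes. Of the 9, 4 rose in HDAC10-/- Treg (Ebf1, Ms4a1, Cr2 and Pax5), none fell, and 5 did not pass the test (Cd79a, Bank1, Cd22, Cd79b and Blk). The test was limma's moderated test of log2 signals, two-sided, with Benjamini-Hochberg adjustment across the array, and a gene was called where its adjusted p was below 0.1. Of all probe sets, 1.25% were called higher in this way, against 44.4% of the members, although the members were chosen with earlier results of these arrays known. With a difference over 1.5-fold as well, 3 members passed (Ebf1, Ms4a1 and Cr2), against 0.424% of all probe sets. In 8 of the 9, each HDAC10-/- array lay above each WT array, which held for 9.89% of all probe sets. The median log2 fold change of the members was 0.46, and that of all probe sets was 0. By the methods' t-test after the same adjustment none of the 9 was called (adjusted p from 0.156 to 0.712), while 8 had an unadjusted p under 0.05 by either tool. The genotype check stood: Hdac10 itself had log2 signals of 6.11 to 6.22 in HDAC10-/- and 8.95 to 9.30 in WT arrays (log2 fold change −2.91, adjusted p = 1.4e-04 in limma).

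**Figure D1:**
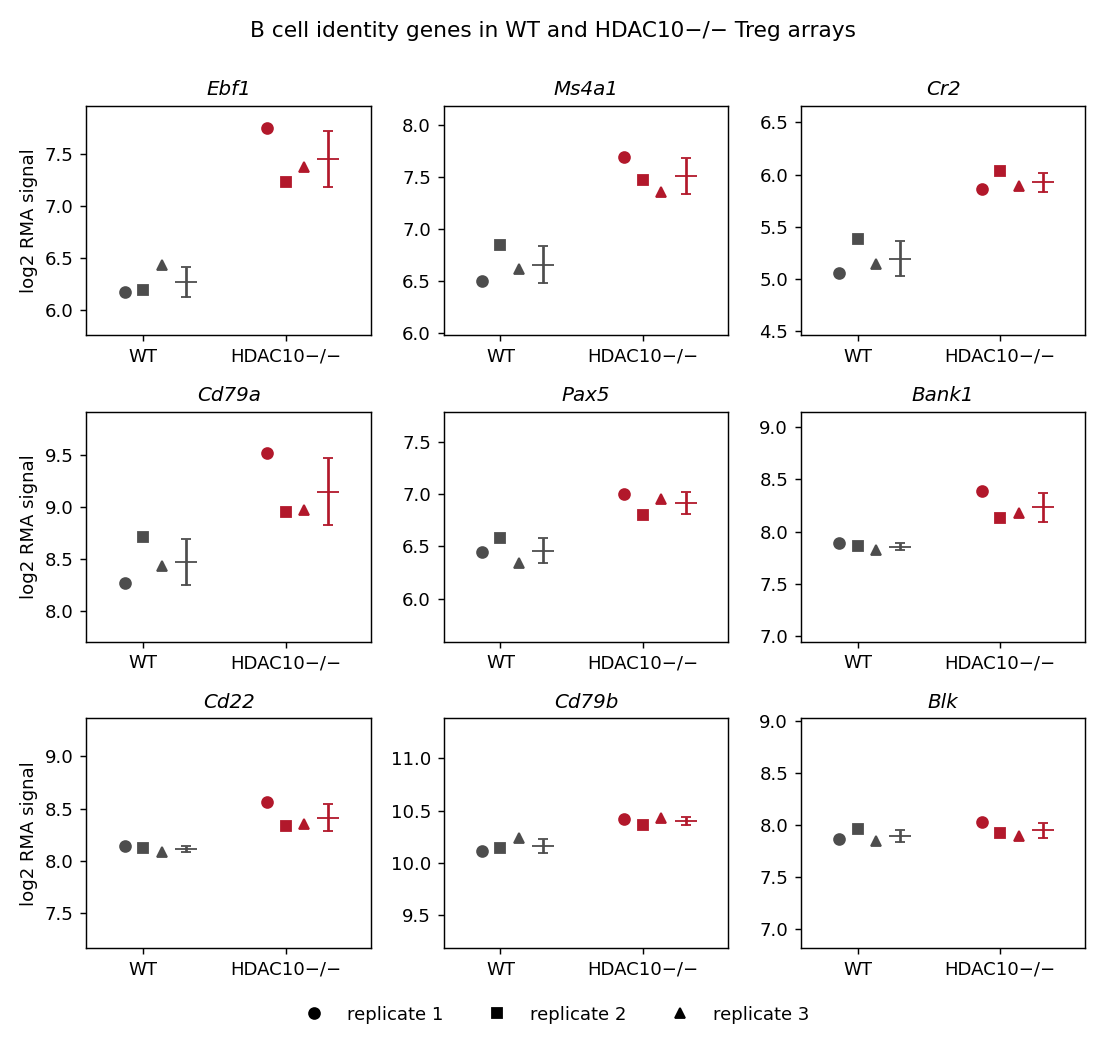
Log2 RMA signal of each of the 9 genes (vertical axis, the same span of log2 units in every panel) in the 3 WT and 3 HDAC10-/- arrays, with points for arrays and bars for mean ± SD. The groups do not overlap in 8 panels, with the widest gap for Ebf1 (7.23 against 6.44), and they overlap for Blk.

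Among the transcription factors, Ebf1 was at log2 signals of 7.75, 7.23 and 7.37 in HDAC10-/- replicates 1 to 3 and at 6.18, 6.2 and 6.44 in WT replicates 1 to 3. The lowest HDAC10-/- array lay 0.79 above the highest WT array, the widest gap of the 9 members. Its signal was 7.45 ± 0.27 against 6.27 ± 0.14 (SD, n = 3 arrays per genotype), a 2.26-fold rise (95% confidence interval 1.80 to 2.84, adjusted p = 0.0201 in limma). Ebf1 is required for B cell specification and, in mature B cells, for their upkeep. Pax5, the commitment factor that Ebf1 helps to switch on, was at 7.0, 6.80 and 6.95 in HDAC10-/- and 6.45, 6.58 and 6.34 in WT arrays. The groups were apart by 0.22, and Pax5 rose 1.38-fold (1.20 to 1.58, adjusted p = 0.0696 in limma), below the 1.5-fold minimum. The call of Ebf1 held without any 1 array (adjusted p up to 0.0955), whereas Pax5 did not pass when any 1 array was left out (adjusted p from 0.109 to 0.221).

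The members of the B cell receptor complex did not pass. Cd79a, the immunoglobulin alpha chain, was at 9.52, 8.95 and 8.97 in HDAC10-/- and 8.27, 8.71 and 8.43 in WT arrays. All 3 HDAC10-/- arrays were above WT, but the arrays within each genotype were further apart than for any other member (SD 0.32 and 0.22, n = 3). Its log2 fold change of 0.68 (95% confidence interval 0.26 to 1.09) had an adjusted p = 0.155 in limma. Cd79b, the beta chain with which Cd79a forms the signalling dimer, was at 10.42, 10.36 and 10.43 in HDAC10-/- and 10.11, 10.14 and 10.24 in WT arrays. Its spread was small (SD 0.038 and 0.068), and so was the difference (0.24, interval 0.095 to 0.39, adjusted p = 0.151 in limma). The groups did not overlap for either chain. Blk, a Src family kinase of the receptor, was at 8.03, 7.92 and 7.90 in HDAC10-/- and 7.87, 7.96 and 7.85 in WT arrays. These ranges overlapped, and the log2 fold change was 0.06 (−0.10 to 0.21, adjusted p = 0.742 in limma). The upper end of that interval is a 1.16-fold difference, below the lower end for Ebf1, Ms4a1, Cr2, Cd79a and Pax5.

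Of the surface receptors and their partners, Ms4a1 and Cr2 rose and Cd22 and Bank1 did not pass. Ms4a1, which encodes CD20, a membrane protein of B cells from the precursor to the memory stage, was at 7.69, 7.47 and 7.35 in HDAC10-/- and 6.50, 6.85 and 6.62 in WT arrays. The groups were 0.50 apart, with a 1.80-fold rise (95% confidence interval 1.48 to 2.18, adjusted p = 0.0318 in limma). Cr2 encodes the complement receptors CD21 and CD35, which lower the threshold of the B cell receptor and are also carried by follicular dendritic cells. It was at 5.86, 6.03 and 5.89 in HDAC10-/- and 5.06, 5.38 and 5.14 in WT arrays. The groups were 0.48 apart, and Cr2 rose 1.66-fold (1.42 to 1.95, adjusted p = 0.0265 in limma), although both genotypes lay below 6.21, the median over all probe sets and arrays, where background makes up more of a signal. Of 7 other follicular dendritic and stromal cell markers, none passed limma or the methods' t-test after adjustment, with 0 and 1 at an unadjusted p under 0.05 (log2 fold changes −0.08 to 0.23).

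Cd22, a lectin that binds sialic acid and recruits phosphatases to dampen receptor signalling, was at 8.56, 8.33 and 8.35 in HDAC10-/- and 8.14, 8.12 and 8.08 in WT arrays. Bank1, a scaffold protein that links the receptor to calcium release, was at 8.39, 8.13 and 8.18 in HDAC10-/- and 7.89, 7.86 and 7.82 in WT arrays. For each of these genes the WT arrays lay close together (SD 0.031 and 0.035) and all HDAC10-/- arrays lay above them. Cd22 had a log2 fold change of 0.30 (0.12 to 0.48, adjusted p = 0.149 in limma). Bank1 had 0.38 (0.19 to 0.57), and its adjusted p = 0.101 lay just above the threshold, so its call depends on the setting: it was called without HDAC10-/- replicate 1 (adjusted p = 0.0881).

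**Figure D2:**
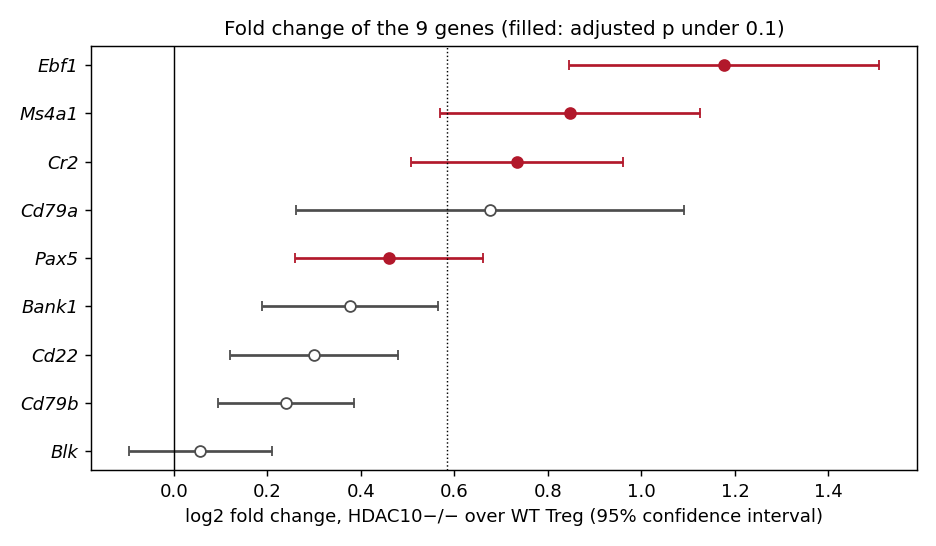
Log2 fold change of HDAC10-/- over WT Treg for each member (horizontal axis) with its 95% confidence interval from limma, filled where the adjusted p was under 0.1, with a dotted line at 1.5-fold. The estimates run from 0.06 for Blk to 1.18 for Ebf1, and only the interval of Blk includes 0.

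Promoter sequence was looked up for the members because several of them moved together and Ebf1 binds DNA at many B cell genes. RefSeq promoters of build GRCm38.p6, 250 bases before to 50 after a start site, were at hand for 6 of the 9 members, 7 start sites in all, since Ebf1 has 2. The motifs, searched on both strands, were the palindrome bound by EBF factors (the core CCCNNGGG, and the whole palindrome, which has a T before that core and an A after it), the octamer ATGCAAAT, the E-box CAGGTG of E2A factors and the ETS core AGGAAGT. The whole EBF palindrome was found in the Cd22 promoter alone among the members, at positions −49 to −40 from the start, and in 0.904% of all 32851 promoters. The core was also found in that of Bank1 (13.7% of all promoters). The E-box was in those of Cr2, Cd79a, Bank1 and Cd22 (20.2% of all), the ETS core in that of Cd79a (9.35%) and the octamer in none of them (1.74%). Neither start site of Ebf1 nor that of Pax5 held any of these letters. Shown 5′ to 3′ are Cr2, the called member with a match, Cd79a, the receptor chain with an E-box and an ETS core, and Cd22, with the EBF palindrome. Capitals mark the matches. They lie at chr1:195176670-195176969 (minus strand) for Cr2, chr7:24897247-24897546 (plus strand) for Cd79a and chr7:30878979-30879278 (minus strand) for Cd22. The annotated genes begin at chr7:30880342 for Cd22 and chr1:195176880 for Cr2. Both start sites thus lie inside the gene, and for Cd22 the whole stretch shown does.
Cr2: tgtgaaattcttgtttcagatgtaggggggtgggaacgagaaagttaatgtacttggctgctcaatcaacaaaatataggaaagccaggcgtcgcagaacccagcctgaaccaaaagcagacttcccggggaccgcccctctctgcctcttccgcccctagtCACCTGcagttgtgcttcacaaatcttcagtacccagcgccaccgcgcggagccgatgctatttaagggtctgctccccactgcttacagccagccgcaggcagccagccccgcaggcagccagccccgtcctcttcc
Cd79a: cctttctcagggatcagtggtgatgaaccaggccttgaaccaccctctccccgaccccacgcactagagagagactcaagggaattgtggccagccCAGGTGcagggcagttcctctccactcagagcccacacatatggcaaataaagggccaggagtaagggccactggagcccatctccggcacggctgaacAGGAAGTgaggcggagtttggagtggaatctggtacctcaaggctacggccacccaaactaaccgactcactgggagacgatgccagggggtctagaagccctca
Cd22: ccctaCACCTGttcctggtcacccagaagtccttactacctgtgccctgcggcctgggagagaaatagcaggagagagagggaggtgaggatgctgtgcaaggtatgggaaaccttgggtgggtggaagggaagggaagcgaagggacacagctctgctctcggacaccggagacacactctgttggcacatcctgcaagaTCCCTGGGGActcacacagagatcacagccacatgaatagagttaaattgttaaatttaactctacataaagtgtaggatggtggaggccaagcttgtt
A match is a stretch of letters, and binding was not measured. The capitals of Cr2 are an E-box read on the opposite strand, at −88 to −83 from its start. Those of Cd79a are an E-box at −154 to −149 and an ETS core at −55 to −49.

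The members did not vary alike between the arrays of a genotype. The mean log2 signal of the 9 was 8.14, 7.91 and 7.93 in HDAC10-/- replicates 1 to 3 and 7.39, 7.53 and 7.44 in WT replicates 1 to 3. HDAC10-/- replicate 1 was the highest of all 6 arrays for 7 members, the exceptions being Cr2 (highest in replicate 2) and Cd79b (highest in replicate 3). The same array stood apart over all probe sets, where its Pearson correlation with replicates 2 and 3 of its genotype was 0.9952 and 0.9953, against 0.9968 between those. Within WT, replicate 2 was the highest array for 5 of the 9. Over deviations from the genotype mean, which leave few degrees of freedom in 6 arrays, the 36 pairs of members had a median Pearson r of 0.543. It ran from −0.431 (Ebf1 with Cr2) to 0.995 (Cd22 with Bank1), as a description of arrays that share RNA and processing. Without HDAC10-/- replicate 1, Ebf1, Ms4a1, Cr2 and Bank1 were called, Pax5 was not, and the log2 fold change of Ebf1 was 1.03. Ms4a1 was not called when HDAC10-/- replicate 2 or either of WT replicates 1 and 3 was removed (highest adjusted p 0.121 in limma), nor was Cr2 when HDAC10-/- replicate 2 or the third WT array was removed (highest 0.105). In every one of these fits all 9 log2 fold changes stayed above 0.

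**Figure D3:**
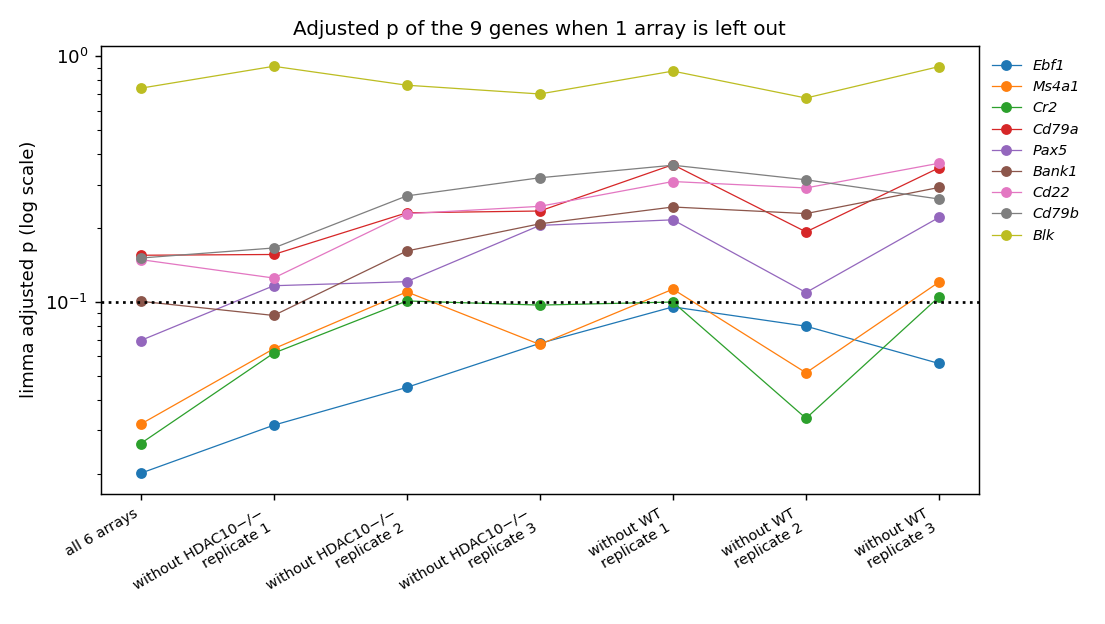
Limma adjusted p (vertical axis, log scale) of each member with all 6 arrays and with each array left out in turn, with a dotted line at the threshold of 0.1. Ebf1 stays below the line in all fits, Cr2 and Ms4a1 cross it in some, and Blk stays between 0.676 and 0.911 when an array is left out.

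Other genes of the B lineage were read from lists by role. Of 14 measured transcription factors of the B lineage, 4 rose and none fell (median log2 fold change 0.26). These were Bcl11a (0.61, adjusted p = 0.0183), Spib, an Ets factor (1.17, adjusted p = 0.0282), Tcf4 (0.43, adjusted p = 0.0585) and Irf8 (0.33, adjusted p = 0.0706). All 4 are also expressed by plasmacytoid dendritic cells. Of 18 genes downstream of the receptor, 6 rose and none fell (median 0.10), led by the phospholipase gene Plcg2 (0.51, adjusted p = 0.0189), the adaptor gene Blnk (0.64, adjusted p = 0.0225), the kinase gene Syk (0.74, adjusted p = 0.0391) and the adaptor gene Dok3 (0.43, adjusted p = 0.0411). Most of these also act in myeloid cells. Of 9 genes of B cell precursors, 3 rose and none fell (median 0.37). Igll1 and Vpreb3 belong to the precursor receptor and its partners, and Rag2 to the recombinase. Igll1 was at 7.45, 6.97 and 7.09 in HDAC10-/- and 6.12, 6.19 and 6.11 in WT arrays, a 2.04-fold rise (adjusted p = 0.0186 in limma). Vpreb3 had a log2 fold change of 0.65 (adjusted p = 0.0381) and Rag2 of 0.44 (adjusted p = 0.0685). The 6 precursor genes that did not pass included Vpreb2 (0.15, adjusted p = 0.645 in limma) and Vpreb1 (−0.08, adjusted p = 0.853), while 8 of the 9 were above 0.

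Other surface and immunoglobulin genes were mixed. Of 15 measured, 3 rose and 1 fell, with a median log2 fold change of 0.10, and the other 7 of the list had no probe set with 1 symbol in the annotation used here. Cd24a, the heat-stable antigen, rose (0.79, adjusted p = 0.0323), as did the sialic acid lectin gene Siglecg (0.82, adjusted p = 0.0823) and the low-affinity IgE receptor gene Fcer2a (0.49, adjusted p = 0.0845). Cxcr5, the follicle-homing receptor gene that follicular T cells also express, fell by 0.37 on the log2 scale (adjusted p = 0.0986 in limma, where 0.757% of all probe sets were lower). Ighm, the IgM heavy chain gene, was at 12.67, 12.81 and 12.75 in HDAC10-/- and 12.83, 12.90 and 12.89 in WT arrays. Every HDAC10-/- array was below every WT array, and the difference of −0.13 did not pass (adjusted p = 0.393). Among 9 genes of antibody-secreting cells, none passed limma or the methods' t-test after adjustment, with 1 higher and 3 lower in limma at an unadjusted p under 0.05 (median −0.04). Of all 34472 probe sets, 2664 were higher and 2397 lower at that level. Jchain, the joining chain gene, had −0.17 (adjusted p = 0.281). Among 7 germinal centre genes none passed either test, with 3 higher and 1 lower in limma at an unadjusted p under 0.05 (median 0.09). Of 10 marginal zone and B-1 cell genes only Plac8, which several leukocytes express, rose (0.64, adjusted p = 0.0132), with a median of 0.01 over the list.

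Some of these calls rested on single arrays. Those of Bcl11a, Plcg2, Blnk, Igll1 and Plac8 held when any 1 array was left out (adjusted p up to 0.0922 in limma). Of these 5, only Plcg2 and Plac8 were also called by the methods' t-test (adjusted p = 0.0768 and 0.0916), by which Bcl11a, Blnk and Igll1 were not (0.116, 0.138 and 0.150), nor was any other gene named from these lists. Spib lost its call without WT replicate 1 or 3, Cd24a without any 1 WT replicate, Syk without HDAC10-/- replicate 2 or 3 or WT replicate 2, and Vpreb3 without HDAC10-/- replicate 2 or 3 or WT replicate 1. Dok3 lost it without HDAC10-/- replicate 3 or any WT replicate, and Fcer2a without any array other than HDAC10-/- replicate 2. Tcf4, Irf8 and Rag2 were called only where HDAC10-/- replicate 1 was the array left out, and Siglecg and Cxcr5 in no such fit (adjusted p up to 0.260 over all of these genes).

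**Figure D4:**
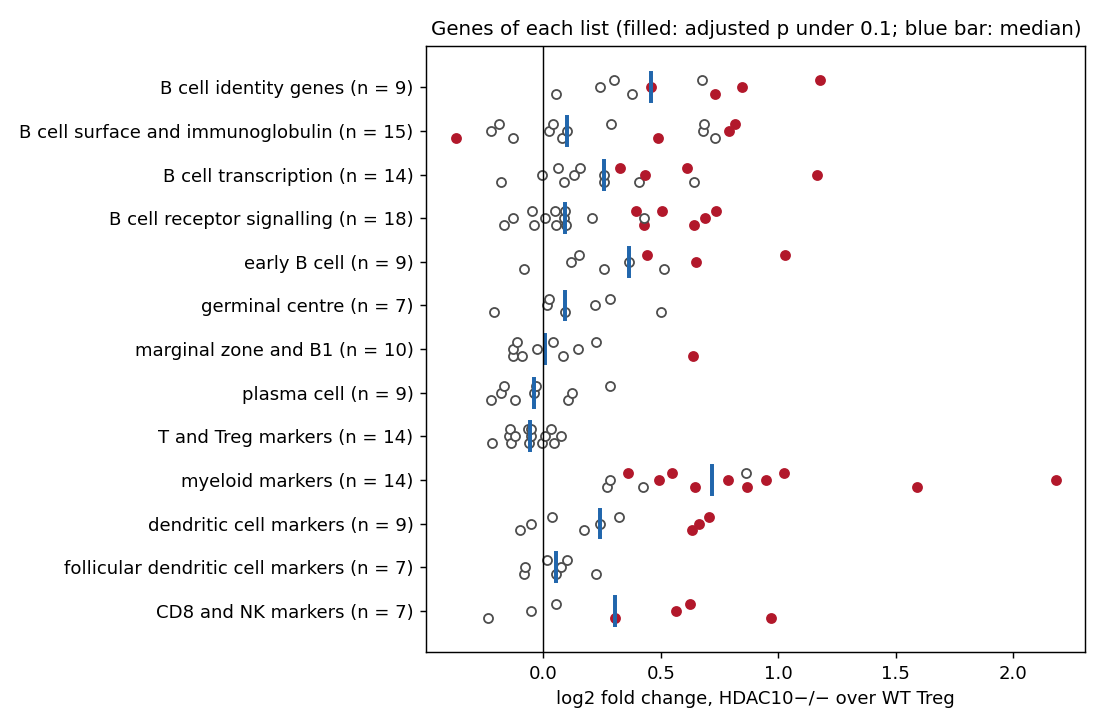
Log2 fold change of HDAC10-/- over WT Treg (horizontal axis) of each measured gene of the 9 members and of 12 lists of related genes or cell type markers, filled where the adjusted p was under 0.1, with a blue bar at the median. The members have a median of 0.46, the genes of antibody-secreting cells −0.04 and the myeloid markers 0.72.

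Several markers of other cell types rose as well. Of 14 myeloid markers 10 rose and none fell, with a median log2 fold change of 0.72 and a mean log2 signal of 6.68 to 6.97 in HDAC10-/- and 5.94 to 6.01 in WT arrays. Among them were the neutrophil granule genes Ltf (0.95, adjusted p = 0.00214 in limma) and Ngp (2.18, adjusted p = 0.0209), Csf1r, whose product binds the macrophage growth factor CSF1 (1.02, adjusted p = 0.00586), and Mrc1, a scavenging lectin of macrophages (0.79, adjusted p = 0.0205). Of 9 dendritic cell markers 3 rose and none fell, led by Flt3 (0.71, adjusted p = 0.00909), with a mean log2 signal of 7.02 to 7.16 against 6.76 to 6.80. The 6 that did not pass included Cd209a (−0.10) and Ccr9 (−0.05), while 7 of the 9 were above 0. Of 7 CD8 T and NK cell markers 4 rose and none fell, led by Klrd1 (0.63, adjusted p = 0.0152), with a mean of 8.25 to 8.30 against 7.89 to 8.00. Klrb1c (−0.23), Cd8b1 (−0.05) and Eomes (0.06) did not pass. For each of these lists, every HDAC10-/- array had a mean above every WT array, as did the members (7.91 to 8.14 against 7.39 to 7.53). The same held for the germinal centre list, with 0 genes called, and the marginal zone and B-1 cell list, with 1. It is thus not particular to lists with several calls. It did not hold for the follicular dendritic and stromal, antibody-secreting, T cell and Treg or erythroid lists. Means were 7.48 to 7.61 against 7.38 to 7.44 for germinal centre genes. They were 8.49 to 8.57 against 8.44 to 8.48 for marginal zone and B-1 cell genes. By the methods' t-test Ltf, Csf1r and Flt3 were called, and Ngp, Mrc1 and Klrd1 were not (adjusted p = 0.165, 0.145 and 0.108). Each of these genes kept its limma call when any 1 array was left out. The called markers Itgax, Siglech, Cd8a and Tyrobp kept theirs in only 2 of 6 such fits each, and Ncr1 in 1. The part of these cell types in the values of the members was not tested. Only 2 of 7 erythroid markers had a probe set with 1 symbol, and they had log2 fold changes of −0.17 and 0.0033.

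The defining genes of the sampled cells were bright in every array. Of 14 T cell and Treg markers none passed limma, and 1, Cd2, was called by the methods' t-test (adjusted p = 0.0900). In limma 4 were lower at an unadjusted p under 0.05, against 2397 of all 34472 probe sets. The smallest p was that of Cd3d, a chain of the T cell receptor complex (log2 fold change −0.22, adjusted p = 0.152 in limma), which was called lower in limma with an intensity trend and the robust option (adjusted p = 0.0256) and among brighter probe sets alone (0.0439). The trend fit also called Cd2 and Tnfrsf18 lower (adjusted p = 0.0760 and 0.0895). For 6 of the 14 markers every HDAC10-/- array lay below every WT array, against 3748 of all 34472 probe sets. The mean log2 signal of the 14 was 11.81 in HDAC10-/- and 11.85 to 11.89 in WT arrays (median log2 fold change −0.06). Cd4 had a log2 fold change of −0.14 (adjusted p = 0.331), Cd3e, another chain of that complex, −0.06 (adjusted p = 0.670) and the Treg factor gene Foxp3 0.03 (adjusted p = 0.855). Signals of different probe sets are not on a common scale, so the arrays give no share of B cells.

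Among 2631 other genes with a range over 0.5 log2 units across the arrays, the 5 whose signal was most like the mean of the 9 members were Spib (Pearson r = 0.9976 over 6 arrays), Ifi205, Gzmb, Sirpa and H2-Ab1 (r = 0.9966, 0.9965, 0.9961 and 0.9955). They include a B lineage factor, an interferon-inducible gene, granzyme B, a myeloid receptor and an MHC class II chain. H2-Ab1 was at 10.90, 10.60 and 10.65 in HDAC10-/- and 10.03, 10.26 and 10.15 in WT arrays, and Sirpa at 7.90, 7.59 and 7.58 against 6.87, 7.02 and 6.83. Like the members' mean, both were highest in HDAC10-/- replicate 1 and, within WT, in replicate 2. Both were picked for their likeness to that mean over the same arrays, so this order is not a separate result. The 6 points share 2 genotypes that differ in the members, so any gene that separates the genotypes scores high, and 114 genes had an r over 0.95.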

How the data were processed

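Per the labels and methods, Treg RNA was hybridised to GeneChip Mouse Gene 2.0 ST arrays. Robust multiarray average (RMA) normalization was done by the authors, whose processing notes name Transcriptome Analysis Console 4.0, and they deposited log2 signals with 2 decimals and no detection calls. All 34472 probe sets and 6 columns were used as deposited. Probe sets were named from the platform annotation only where they have exactly 1 symbol (23521), and a gene with several was read from its brightest by mean over the 6 arrays.

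HDAC10-/- was compared with WT in R 4.3.3 with limma 3.58.1 (lmFit and eBayes, prior degrees of freedom 3.23), two-sided, with Benjamini-Hochberg adjustment over all probe sets, at an adjusted p under 0.1. The 1.5-fold minimum of the methods was counted separately. The 95% confidence intervals come from the same moderated fit. Arrays have no read depth, and 3 arrays per genotype limit the precision. The fit was tested on simulated data. The members and gene lists (155 entries in 13 lists beside the members, 135 measured) were chosen with earlier results of these data known. The naming rule took the genes with the smallest p-values, up to 4 per list, and several of these that did not pass are left unnamed here. It also took Ighm as the brightest of its list, Cd3e, Cd4 and Foxp3, and the 5 genes most correlated with the mean of the members. Also given are Vpreb1, Vpreb2, Klrb1c, Cd8b1, Eomes, Cd209a and Ccr9, which did not pass. Alternatives were the methods' plain t-test (unpaired, equal variances, the same adjustment; the authors' own settings beyond a Student t-test and its thresholds are not given in the sources used here), array weights, a robust fit with an intensity trend, quantile normalization, median centring, brighter probe sets alone, probe sets with 1 symbol alone, the mean of a gene's probe sets, a threshold of 0.05, a replicate block and each array left out in turn. No column of another series was present.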

Additional observations from a re-analysis of the deposited data

How the results depend on the processing

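The log2 fold changes of all 9 members stayed positive under each alternative that gave them a value. The number called depended on the setting: 4 of 9 in the fit reported, 0 by the methods' t-test, 8 with an intensity trend and the robust option, 7 of 8 among probe sets brighter than the median (which leaves out Cr2) and 2 with the replicate block (Ebf1 and Cr2). Leaving out 1 array gave 1 to 4 members, with 1 (Ebf1) without HDAC10-/- replicate 2 or WT replicate 3 and 2 (Ebf1 and Cr2) without WT replicate 1. With the 1.5-fold minimum, 3 members became 0 by the methods' t-test and 1 to 3 with 1 array left out. Of the surface and immunoglobulin genes, 3 became 0 by the t-test, 5 with the trend, with array weights, with brighter probe sets or with 1-symbol probe sets, 1 with the block and 0 to 3 with 1 array left out. Over all probe sets, 692 calls became 181, 1756, 1332 and 2000 (t-test, trend, array weights, brighter probe sets), 205 with the block and 176 to 1085 with 1 array left out. The calls were 431 higher and 261 lower, but 349 and 418 after median centring, 83 and 98 by the t-test, 869 and 887 with the trend and 923 and 1077 with brighter probe sets. The log2 fold change of Foxp3 turned to −0.01 without HDAC10-/- replicate 1 and ran up to 0.055 with another array left out. Where calls changed, the cause was not tested. Same-numbered arrays did not deviate together (r = −0.00316, 0.000632 and −0.0242), and differently numbered ones had r from −0.0353 to 0.0418. With 3 arrays per genotype these values cannot show whether samples were prepared in pairs, which the sample titles do not state. Of the 27 genes of the other lists that the naming rule took and limma called, 22 were not called by the methods' t-test and 16 not with the replicate block. Signals carry no detection calls, so whether the dimmest members were above background is unknown.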

Other observations

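Of 7 probe sets annotated to Ighm alone, 2 had log2 fold changes above 0 and 5 below, from 0.16 to −0.68. The lowest was at 9.51, 8.97 and 9.37 in HDAC10-/- arrays and at 9.90 or higher in WT arrays (adjusted p = 0.0816 in limma). The other 6 had adjusted p from 0.212 to 0.818.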
